A study of Danio rerio with 7 samples.

Results

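Cytokines are secreted proteins that carry signals between cells, and chemokines are the small cytokines that set the direction in which leukocytes and migrating progenitors move. Each acts through a receptor on the target cell. Chemokines use receptors coupled to G proteins, while interferons and many interleukins use receptor chains that switch on JAK kinases and STAT factors. Tumour necrosis factor (TNF) relatives use receptors that feed into the NF-kB pathway. In the zebrafish heart, these genes are known above all for recruiting macrophages and neutrophils after injury and, for the Cxcl12 system, for guiding migrating cells in the embryo.

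The genes described here are the chemokines, cytokines and their receptors of the zebrafish. They were chosen by their Ensembl symbols, which had to begin as a chemokine ligand or receptor (cxcl, ccl, cxcr, ccr, ackr), an interleukin or its receptor (il), a TNF relative (tnfa, tnfb, tnfsf, tnfrsf), interferon gamma or its receptor (ifng), a class II cytokine receptor (crfb) or a colony-stimulating factor (csf). The rule itself uses symbols and no measured value, although it was set with earlier results of these data known. Of 33737 gene IDs, 144 were chosen. The prefixes also took in 9 genes named tnfaip, which are not cytokines, and *il4i1*, an amino acid oxidase. The tnfaip genes are grouped below as TNF-induced proteins after their name, which some carry only as relatives of such a gene. Whether TNF induces them in these hearts was not tested. For brevity all 144 genes, the tnfaip genes and *il4i1* included, are called cytokine genes below and enter every count. Of the 144 genes, 94 had enough reads for a test and 50 did not.

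RNA sequencing was performed on hearts dissected and pooled at 96 hours post fertilisation (hpf), with 3 control and 4 *cora* libraries. The *cora* hearts came from embryos homozygous for *cora* stl325 (*corazoncito*), a nonsense allele of *taf5* recovered from a chemical mutagenesis screen, and *taf5* encodes a scaffold subunit of the general transcription factor TFIID. The controls were unaffected clutchmates, which the labels call WT and which can include heterozygous carriers. Both groups carried *Tg(cmlc2::gfp)*, a transgene that marks heart muscle cells with green fluorescent protein, and neither was treated. The *cora* libraries are numbered 1 to 4 and the control libraries 1 and 3, while the other control library has no number and is called the unnumbered control below. At this stage affected embryos have pericardial oedema, and the allele acts in the whole embryo and not in the heart alone.

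Library totals ran from 21474488 to 32037220 counts, and 104 to 126 of the 144 cytokine genes had at least 1 count in a library. These genes took 0.0998% to 0.143% of all counts in the control libraries and 0.129% to 0.202% in the *cora* libraries. *taf5* was at 5.10 to 8.83 normalized CPM (the share of the library total, brought to one scale after TMM correction of the totals) in controls and at 1.97 to 4.56 in *cora*, without overlap, although it did not pass the test (log2 fold change −0.94, SE (standard error) 0.38, adjusted p = 0.232). Control replicate 1 stood apart, with 33.7% of its counts on mitochondrial genes against 16.8% to 21.8% in the other libraries. The heart label was checked against markers. The heart muscle myosin light chain *myl7* ranged from 31.1 to 1069 normalized CPM in controls and from 51.0 to 525 in *cora*, and the lowest of all was control replicate 1. The 15 epidermis markers together took 1.29% to 3.399% of control counts and 2.34% to 3.65% of *cora* counts, against 0.0206% to 0.322% and 0.0371% to 0.171% for the 9 heart muscle genes tested. Control replicate 1 alone made the epidermis shares overlap, at 3.399% beside 1.29% and 1.45% in the other controls. The 12 liver markers took 0.666% to 2.93% of control counts and 0.327% to 2.68% of *cora* counts. In every library the heart muscle genes took a smaller share than the epidermis or the liver markers. The lists were not equally complete, since 8 of 16 heart muscle symbols matched a gene ID, against 15 of 16 for epidermis and 12 of 16 for liver. The share of heart muscle may therefore be understated. The 7 neuron markers took 0.0845% to 0.117% of control counts and 0.0894% to 0.137% of *cora* counts. This was more than the heart muscle genes took in control replicate 1 and *cora* replicates 2, 3 and 4, and less in the other libraries. The pools thus carried epidermal, liver and neuronal as well as heart muscle RNA, in amounts that differed between libraries. The sample titles read zebrafish embryos, while the paper states that hearts were pooled. Which cells carried a cytokine rise was not tested. Nothing states whether the pools came from separate clutches, so p-values measure the spread between these libraries, which may be technical in part. In bulk pools of this kind, fewer cells of a type and less RNA per cell cannot be told apart.

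The comparison asks which cytokine genes differed between *cora* and control heart pools. In the fit of all 7 libraries, 6 of the 94 genes tested rose in the *cora* group with an adjusted p under 0.05 (edgeR's quasi-likelihood test, Benjamini-Hochberg adjustment over 21632 genes). They were the chemokine *cxcl18b*, both interleukin 11 genes *il11a* and *il11b*, the TNF gene *tnfb*, the TNF receptor *tnfrsf1a* and the interferon gamma receptor chain *ifngr1*. This is 6.38% of the cytokine genes tested, beside 1.11% of all genes tested that were called higher. Of these 6, *il11b* reached the read level needed for a test only in *cora* libraries. *il11a* reached it in the *cora* libraries and, of the controls, in replicate 1 alone, so both genes entered the test through *cora*. This share is therefore a description. No cytokine gene was called lower, beside 0.86% of all genes. At an unadjusted p under 0.05, 20 cytokine genes were higher and 11 lower (21.3% and 11.7%), beside 9.13% and 8.61% of all genes. DESeq2 called 14 cytokine genes higher and 5 lower, beside 4.56% and 3.73% of all genes, and limma voom called 1 lower, beside 0.841%.

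Every *cora* library lay above every control library for 15 cytokine genes (16.0%, beside 9.01% of all genes), and below for 9 (9.57%, beside 8.73%). Over the 94 genes the median log2 fold change was 0.20, beside −0.03 over all genes tested, with a range from −4.04 to 6.0. Of the 94, 21 were at least 2-fold higher in *cora* and 12 at least 2-fold lower (22.3% and 12.8%, beside 7.21% and 8.84% of all genes). A gene enters the test when it has enough reads in at least 1 group. Of the 94, 4 (*ccr12b.1*, *il11b*, *il17c* and *tnfrsf18*) reached the minimum level only in *cora* libraries and 1 (*il12b2*) only in control libraries. Others reached it in libraries of both groups but entered through 1 group, as *il11a* did through *cora* and *ccl38.1* through control. These medians and counts are therefore descriptions.

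**Figure D1:**
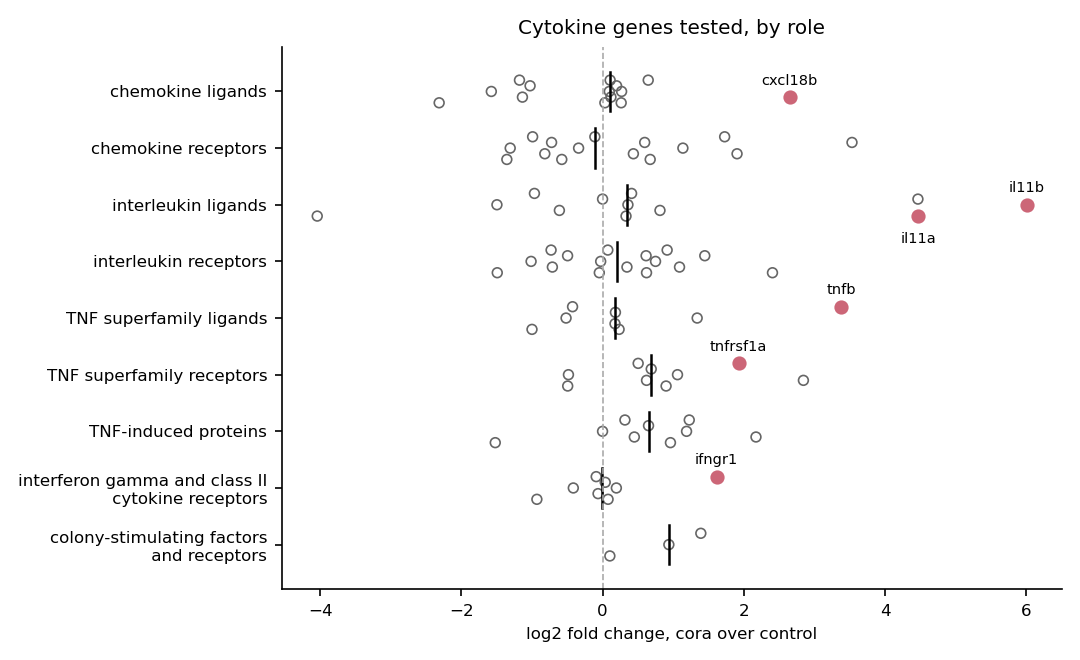
Log2 fold change of *cora* over control for the 94 cytokine genes tested (x axis), 1 circle per gene, in rows by role, with the median of each role as a vertical line and the vertical offset within a row without meaning. The 6 filled circles are the genes with an adjusted p under 0.05, all to the right of 0, and the rows of TNF receptors (median 0.69) and TNF-induced proteins (median 0.65) lie mostly to the right.

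Among the chemokine ligands, 14 of 31 genes were tested and 1 rose. *cxcl18b*, a chemokine that attracts neutrophils in zebrafish larvae, was at 9.17, 7.13 and 10.4 normalized CPM in control replicates 1 and 3 and the unnumbered control, and at 70.2, 57.9, 56.1 and 39.3 in *cora* replicates 1 to 4. The lowest *cora* library was far above the highest control, and the control libraries lay close together. Mean levels were 8.90 ± 1.65 (SD, n = 3) and 55.9 ± 12.7 (SD, n = 4), a 6.28-fold difference, which is 2.65 on the fitted log2 scale (SE 0.27, adjusted p = 0.0052 by edgeR). Per kilobase of exon, its level went from 8.09 in controls to 50.7 in *cora*. *cxcl18b* (ENSDARG00000075045) was the one gene of the 6 whose call survived the loss of any single library, with an adjusted p between 0.00376 and 0.0310.

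On the Zv9 build, *cxcl18b* is found at positions 49728563 to 49732289 of chromosome 1, on the minus strand, 189 kb from *taf5* (49921680 to 49938546). *ifngr1* lies on the same chromosome at a distance of 4.47 Mb. Embryos selected for being homozygous at *taf5* are also alike at neighbouring positions of chromosome 1, so for these 2 genes the loss of *taf5* and a difference in the surrounding mutagenised chromosome cannot be told apart. The third cytokine gene tested on chromosome 1, *il15*, 3.79 Mb from *taf5*, was not called. Of the 91 cytokine genes tested on other chromosomes 4 were called higher, and of the 955 genes of any kind tested on chromosome 1, 9 were (0.942%). Those 9 include *cxcl18b* and *ifngr1*. The share is over the whole chromosome, so it cannot describe the region near *taf5*.

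No other chemokine ligand was higher at an unadjusted p under 0.05, and 4 of the 14 were lower, beside 8.61% of all genes. *cxcl20*, a chemokine gene of fish, was at 5.64, 6.49 and 8.41 normalized CPM in controls and at 2.09, 3.25, 1.48 and 2.34 in *cora*. The groups did not overlap, and the log2 fold change of −1.58 (SE 0.35) had an adjusted p = 0.0578 by edgeR, just outside the threshold. *ccl38.1*, named after its values were seen, was at 1.64, 2.06 and 1.18 in controls and at 0.50, 0.19, 0.28 and 0.33 in *cora*, also without overlap (log2 fold change −2.31, adjusted p = 0.0743). The most abundant ligand per kilobase of exon was *cxcl14*, a chemokine made steadily by epithelia, with a mean of 99.2 normalized CPM per kilobase. *cxcl14* was at 103, 206 and 154 in controls and at 177, 193, 257 and 113 in *cora*, so the groups overlapped and the fold change of 0.26 on the log2 scale was within the spread (adjusted p = 0.737). Most of the 17 ligands left untested are tandem copies of the ccl34, ccl38 and cxcl11 groups, where reads of near-identical copies can be split between genes, and none exceeded 12 counts in a library.

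**Figure D2:**
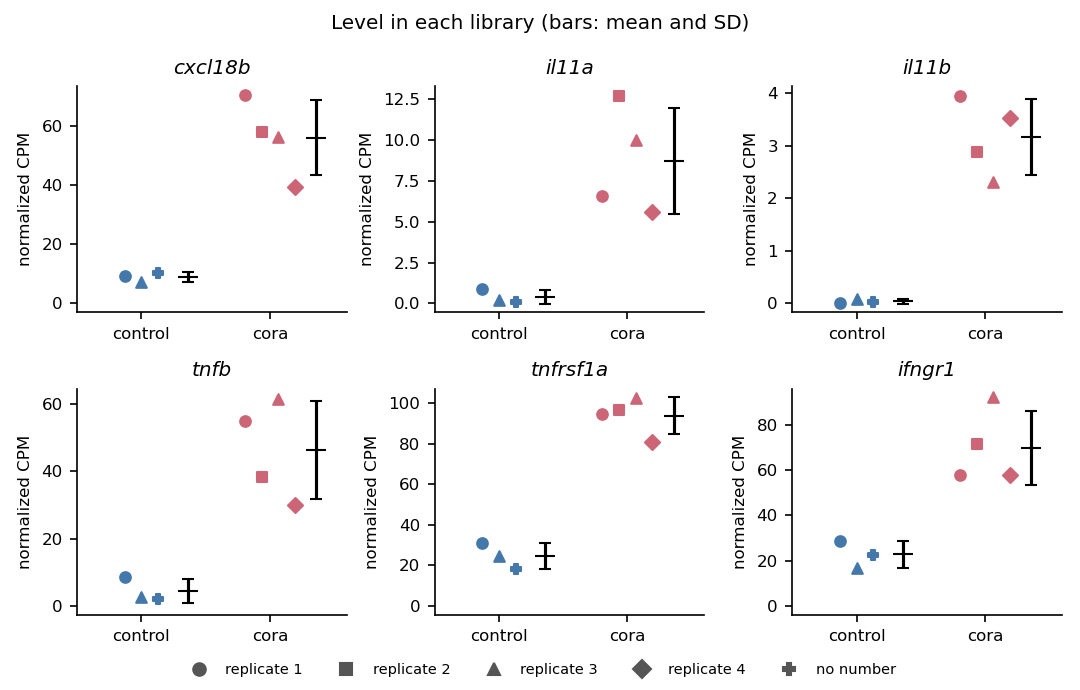
Normalized CPM (y axis, from 0, a separate scale per panel) of the 6 genes called higher, in 3 control and 4 *cora* libraries, 1 symbol per library, with the mean and SD as a bar beside each group. In every panel the lowest *cora* library is above the highest control library, and control replicate 1 is the highest control for *il11a*, *tnfb*, *tnfrsf1a* and *ifngr1*.

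Among the chemokine receptors, 15 of 25 genes were tested and none was called in either direction. The Cxcl12 system was read as a set, since it holds 2 ligands, their receptors Cxcr4a and Cxcr4b, and the Ackr3 receptors that take up the ligand without signalling through G proteins. *cxcl12a* was at 47.4, 127 and 144 normalized CPM in controls and at 115, 130, 72.7 and 117 in *cora*, with a log2 fold change of 0.03 (SE 0.37). *cxcl12b* was at 40.6, 104 and 103 in controls and at 49.2, 45.4, 28.9 and 38.9 in *cora*, with a log2 fold change of −1.03 (SE 0.34, adjusted p = 0.158). Control replicate 1 was low for both ligands, and it alone made the *cxcl12b* groups overlap. Without it *cxcl12b* was called lower.

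The 2 copies of each receptor of Cxcl12 had log2 fold changes of opposite sign. *cxcr4a* was at 12.7, 4.04 and 6.87 normalized CPM in controls and at 39.1, 47.1, 18.9 and 12.4 in *cora*, where the lowest *cora* library fell just under the highest control (log2 fold change 1.90, SE 0.54, adjusted p = 0.114). *cxcr4b* was at 22.1, 23.0 and 22.8 in controls and at 18.1, 20.7, 12.7 and 20.1 in *cora*, all *cora* values being lower by a small amount (log2 fold change −0.34, adjusted p = 0.479). *cxcr4a* thus went from 4.57 to 17.0 normalized CPM per kilobase while *cxcr4b* went from 13.5 to 10.7. The exons of *cxcr4a* overlap those of another gene in the files, so some of its reads may belong to that gene.

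For the scavenging receptors it was the first copy that had the negative value. *ackr3a* was at 8.44, 11.7 and 12.0 normalized CPM in controls and at 6.49, 2.99, 3.93 and 3.86 in *cora*, without overlap (log2 fold change −1.31, SE 0.32, adjusted p = 0.0781). *ackr3b*, the most abundant receptor of the group per kilobase (mean 42.1), was at 41.5, 75.6 and 73.6 in controls and at 117, 128, 84.0 and 55.3 in *cora*, with overlap (log2 fold change 0.60, adjusted p = 0.403). None of these 6 genes of the Cxcl12 system passed the test in the fit of all libraries. Expressed as the log2 ratio of the first copy to the second within a library (with 0.1 normalized CPM added to each), *cxcl12a* over *cxcl12b* was 0.22 to 0.48 in controls and 1.22 to 1.59 in *cora*. For *cxcr4a* over *cxcr4b* the ratio was −2.48 to −0.79 and −0.69 to 1.18, and for *ackr3a* over *ackr3b* −2.69 to −2.28 and −5.38 to −3.81, so in all 3 pairs the ratio did not overlap between groups. These 3 pairs were singled out after their values were seen. By an exact permutation test (two-sided) each had p = 0.0571, the smallest this test can give here, and an adjusted p = 0.129 over the 9 pairs of copies tested. With 3 against 4 libraries none of the 9 could reach a p under 0.05, so this test cannot decide whether a ratio differed. The others had an exact p from 0.0571 (*tnfaip2a* over *tnfaip2b*) to 1 (*il11a* over *il11b*).

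**Figure D3:**
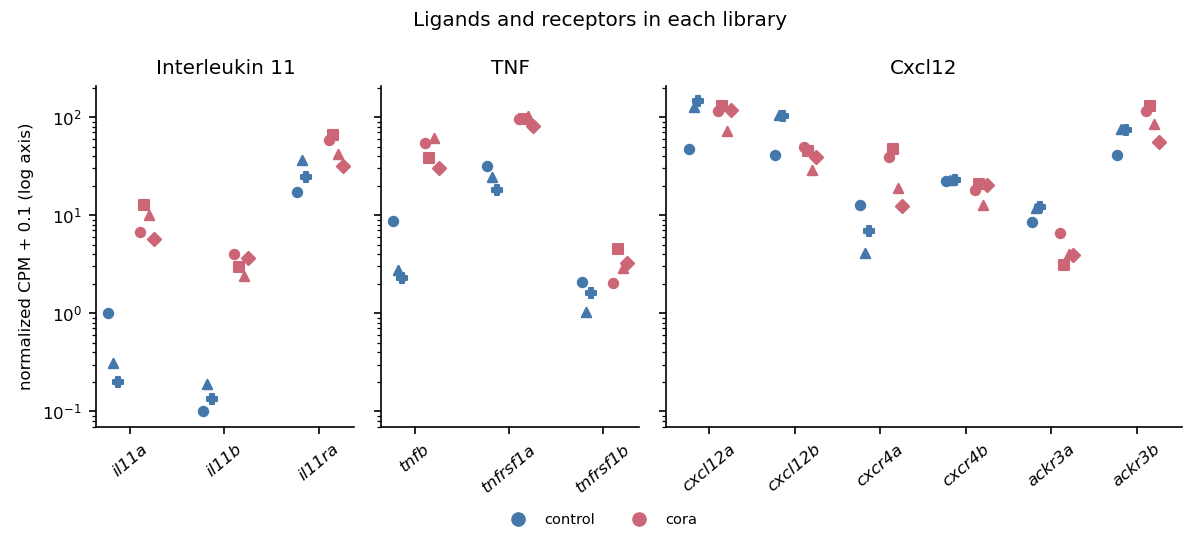
Normalized CPM plus 0.1 on a log axis for ligands and receptors of 3 systems, 1 symbol per library (shapes as in the plot of the 6 genes called higher), controls in blue on the left and *cora* in red on the right of each gene. The ligands *il11a*, *il11b* and *tnfb* have log2 fold changes of 3.37 to 6.0, against 0.91 to 1.93 for their receptors, and the 2 copies of *cxcr4* and of *ackr3* have log2 fold changes of opposite sign.

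The highest log2 fold change among chemokine receptors was that of *ccr12b.2*, a receptor gene of fish, which did not pass the test. It was at 2.80, 0.64 and 0.33 normalized CPM in controls and at 20.3, 11.3, 24.3 and 1.11 in *cora*. Replicates 1 to 3 of *cora* were high and replicate 4 lay within the controls, so the log2 fold change of 3.53 had an SE of 1.05 (adjusted p = 0.1253). Without *cora* replicate 4 it was called higher. *ccr9a*, the receptor for Ccl25 on developing T cells, was at 13.6, 3.28 and 4.91 in controls and at 5.82, 6.32, 1.85 and 2.38 in *cora*, and its ligand gene *ccl25b* was at 35.9, 29.8 and 33.5 and at 53.0, 40.2, 19.2 and 31.1. Both overlapped between groups (log2 fold changes −0.82 and 0.12). *cxcr3.2*, a receptor that guides zebrafish macrophages, was at 0.82 to 2.72 in controls and 1.27 to 2.34 in *cora* (log2 fold change −0.11). The receptor genes *cxcr2* and *cxcr1* with the cxcl8 ligands were not analysed here, since the first and the ligands matched no symbol and 2 gene IDs shared the symbol *cxcr1*.

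Among the interleukins, 12 of 24 genes were tested and 2 rose, both of them interleukin 11. Interleukin 11 is a cytokine of the interleukin 6 family that signals through its own receptor chain and a shared one to STAT3, and zebrafish carry 2 copies of its gene. *il11a* was at 0.90, 0.21 and 0.10 normalized CPM in control replicates 1 and 3 and the unnumbered control, and at 6.57, 12.7, 9.98 and 5.59 in *cora* replicates 1 to 4. Mean levels were 0.405 ± 0.436 (SD, n = 3) and 8.70 ± 3.25 (SD, n = 4), and no library crossed over (log2 fold change 4.47, SE 0.73, adjusted p = 0.0264). The call did not hold without control replicate 3, the unnumbered control or *cora* replicates 1, 2 or 3, where the adjusted p reached 0.123. The log2 fold change stayed between 3.99 and 5.76. Among the controls only replicate 1 reached the minimum level for testing, so *il11a* entered the test through the *cora* libraries. Its adjusted p is therefore read as a description.

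*il11b* was nearly silent in controls. It had 0, 3 and 1 counts there against 94, 77, 50 and 86 in the *cora* libraries, which corresponds to 3.94, 2.88, 2.31 and 3.53 normalized CPM in *cora* and at most 0.09 in controls. The ratio of the summed normalized counts was 68.9 with an exact 95% interval of 26.6 to 254, which covers counting error only. The fitted log2 fold change was 6.0 (SE 0.74, adjusted p = 0.0108), and it depends on the prior count since the controls were close to 0. *il11b* reached the minimum level for testing only in *cora* libraries, so its adjusted p is read as a description. Among the fits that left out 1 library, the call was lost only without the unnumbered control (adjusted p = 0.0670 by edgeR). *il11a* (ENSDARG00000037859) lies on chromosome 16 from 14359727 to 14366281 and *il11b* (ENSDARG00000058557) on chromosome 19 from 11052346 to 11054670 (Zv9), so the copies are counted at separate places.

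The receptor chain gene *il11ra* was present in every library. It was at 17.3, 36.4 and 24.4 normalized CPM in controls and at 58.1, 65.1, 41.5 and 31.5 in *cora*, where replicate 4 fell below the highest control (log2 fold change 0.91, SE 0.33, adjusted p = 0.192). Per kilobase of exon, *il11a* went from 0.613 to 13.2 while *il11ra* went from 9.27 to 17.5, so the ligand gene was far below its receptor in controls and near it in *cora*. The genes of the interleukin 6 ligand, its receptor and the shared chain *il6st* were not analysed here, for want of a matching gene ID.

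No other interleukin ligand was called. *il15*, which sustains natural killer and T cells and was the most abundant interleukin per kilobase (mean 10.8), was at 24.9, 16.6 and 15.2 normalized CPM in controls and at 12.7, 15.5, 13.7 and 7.56 in *cora* (log2 fold change −0.61, adjusted p = 0.328). *il12b2*, a gene for the shared subunit of interleukins 12 and 23, was at 1.16, 0.52 and 1.08 in controls and at 0, 0.04, 0 and 0.16 in *cora*. It had the lowest log2 fold change of all cytokine genes (−4.04, SE 1.01, adjusted p = 0.0809), on few reads, and is named after its values were seen. *il7* was at 1.42 to 4.58 in controls and 3.23 to 5.86 in *cora*, and *il10*, an anti-inflammatory interleukin, had 12 counts over the controls and 7 over the *cora* libraries. The macrophage growth factor gene *il34* had 6 and 16 counts in all.

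Among the interleukin receptors, 16 of 20 genes were tested and none was called. *il10rb*, a chain shared by receptors of the interleukin 10 family and the most abundant one per kilobase (mean 41.6), was at 58.0, 54.4 and 50.6 normalized CPM in controls and at 60.7, 64.6, 85.3 and 65.2 in *cora*, without overlap but by a small amount (log2 fold change 0.34, adjusted p = 0.41). *il21r.1* had the highest log2 fold change of the group, with 0.13, 1.64 and 0.95 in controls and 7.07, 3.33, 6.61 and 2.55 in *cora* (2.40, SE 0.73, adjusted p = 0.133). *il13ra1*, a chain of the receptor for interleukins 4 and 13, was named after its values were seen. It was at 36.3, 27.2 and 20.9 in controls and at 82.6, 71.1, 107 and 45.8 in *cora*, without overlap. Its adjusted p = 0.0563 by edgeR lay just outside the threshold (log2 fold change 1.45, SE 0.32), while DESeq2 called it higher.

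*il1rapl2* was at the low end of the receptors. This relative of the interleukin 1 receptor is best known from nerve cells in mammals, and it was at 1.68, 9.50 and 7.98 normalized CPM in controls and at 1.59, 2.80, 3.14 and 1.56 in *cora*. Control replicate 1 sat among the *cora* libraries and the other controls above them (log2 fold change −1.49, SE 0.56, adjusted p = 0.207). *il7r*, the receptor of interleukin 7 on lymphocytes, had 22 counts over the controls and 48 over the *cora* libraries.

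Among the TNF ligands, 8 of 10 genes were tested and 1 rose. *tnfb*, the second TNF gene of fish and an activator of NF-kB, was at 8.57, 2.67 and 2.19 normalized CPM in control replicates 1 and 3 and the unnumbered control, and at 54.8, 38.4, 61.4 and 29.98 in *cora* replicates 1 to 4. Mean levels were 4.48 ± 3.55 (SD, n = 3) and 46.1 ± 14.5 (SD, n = 4), a 10.3-fold difference, and control replicate 1 was above the other controls yet well below every *cora* library. The log2 fold change was 3.37 (SE 0.53, adjusted p = 0.0245 by edgeR). The call did not hold without control replicate 3, the unnumbered control, *cora* replicate 1 or *cora* replicate 3, where the adjusted p reached 0.111. *tnfb* (ENSDARG00000013598) lies on chromosome 15 from 33995840 to 33998916 (Zv9).

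*tnfa*, the other TNF gene, had too few reads for the test. It had 0, 1 and 0 counts in controls and 8, 11, 44 and 0 in *cora*. Most of its reads came from *cora* replicate 3, and *cora* replicate 4 had none, as did control replicate 1 and the unnumbered control. The ratio of summed normalized counts was 56.6 with an exact 95% interval of 9.79 to 2269, for counting error only. Per kilobase of exon, *tnfb* was at 26.2 normalized CPM in *cora* and *tnfa* at 0.663.

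The remaining TNF ligands were not called. *tnfsf10*, the death ligand TRAIL and the most abundant TNF ligand per kilobase (mean 20.2), was at 40.6, 51.0 and 41.7 normalized CPM in controls and at 40.5, 49.8, 22.4 and 19.6 in *cora* (log2 fold change −0.43, adjusted p = 0.557). A relative, *tnfsf10l4*, had the lowest log2 fold change of the ligands with at least 1 normalized CPM (−1.0, adjusted p = 0.319). *tnfsf11*, which encodes the osteoclast factor RANKL, was at 6.63, 1.24 and 1.77 in controls and at 8.54, 7.66, 14.3 and 1.81 in *cora*, with overlap (log2 fold change 1.34, adjusted p = 0.395). The gene of its receptor, *tnfrsf11a*, was at 0.21 to 2.41 in controls and 1.36 to 3.59 in *cora*.

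Among the TNF receptors, 9 of 10 genes were tested, 7 had a log2 fold change above 0 and 1 rose. *tnfrsf1a*, the main signalling receptor of TNF, was at 31.3, 24.6 and 18.1 normalized CPM in controls and at 94.6, 96.7, 102 and 80.9 in *cora*. The *cora* libraries lay within a narrow range far above the controls, with mean levels of 24.7 ± 6.60 (SD, n = 3) and 93.7 ± 9.10 (SD, n = 4), a 3.80-fold difference. The log2 fold change was 1.93 (SE 0.24, adjusted p = 0.0109), and the call did not hold without control replicate 3 or the unnumbered control (adjusted p up to 0.0716). *tnfrsf1a* (ENSDARG00000018569) lies on chromosome 16 from 19123791 to 19134140 (Zv9), and it was also the most abundant receptor of the group per kilobase, going from 9.83 to 37.3.

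*tnfrsf1b*, the second TNF receptor, was far lower. It was at 1.98, 0.94 and 1.51 normalized CPM in controls and at 1.93, 4.41, 2.82 and 3.12 in *cora*, with *cora* replicate 1 inside the controls (log2 fold change 1.06, SE 0.45, adjusted p = 0.26). *tnfrsf19* had the lowest log2 fold change (−0.49, adjusted p = 0.42). Of the 9 receptors, 5 were higher at an unadjusted p under 0.05 and none lower, beside 9.13% and 8.61% of all genes, and 4 lay above every control in every *cora* library, beside 9.01%.

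The 9 genes grouped by name as TNF-induced proteins were all tested and none was called. At an unadjusted p under 0.05, 4 were higher and 1 lower, beside 9.13% and 8.61% of all genes. These are part of the 20 and 11 cytokine genes counted at that level. *tnfaip8l3*, which carries phospholipids between membranes in mammals, was at 12.8, 16.1 and 19.8 normalized CPM in controls and at 6.87, 3.07, 6.05 and 6.65 in *cora*. The groups did not overlap, and the log2 fold change of −1.52 (SE 0.32) had an adjusted p = 0.0506, the closest to the threshold of any cytokine gene outside it. *tnfaip2b* had the highest log2 fold change, with 0, 1.61 and 0.92 in controls and 3.64, 3.59, 6.28 and 1.97 in *cora* (2.17, SE 0.94, adjusted p = 0.271), although its exons overlap another gene. *tnfaip6*, a hyaluronan-binding protein secreted in inflammation and the most abundant per kilobase (mean 15.0), was at 9.90, 17.3 and 15.0 in controls and at 31.1, 16.4, 32.9 and 7.97 in *cora*, with overlap.

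Among interferon gamma and the class II cytokine receptors, 8 of 10 genes were tested and 1 rose. *ifngr1*, the ligand-binding chain of the interferon gamma receptor, was at 28.8, 16.9 and 22.7 normalized CPM in controls and at 58.0, 71.6, 92.2 and 57.7 in *cora*. The groups did not overlap, with mean levels of 22.8 ± 5.99 (SD, n = 3) and 69.9 ± 16.2 (SD, n = 4), a 3.06-fold difference (log2 fold change 1.61, SE 0.27, adjusted p = 0.0287). The call held in only 2 of the 7 fits that left out 1 library, those without control replicate 1 or *cora* replicate 4, and the adjusted p reached 0.142. *ifngr1* (ENSDARG00000074771) lies on chromosome 1 from 54409099 to 54430062 (Zv9). The signalling chain *ifngr2*, named after its values were seen, was at 61.8 to 73.9 in controls and 60.3 to 66.2 in *cora* (log2 fold change −0.09, SE 0.17).

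The ligand gene *ifng1*, named after its values were seen, had 4 counts, all in control replicate 3. *crfb2*, a receptor chain for virus-induced interferons in zebrafish, had the lowest log2 fold change of the group (−0.93, SE 0.38, adjusted p = 0.24). It was at 2.32, 3.03 and 3.99 normalized CPM in controls and at 1.76, 1.57, 1.94 and 1.27 in *cora*, all *cora* values being the lower ones.

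Among the colony-stimulating factors, 3 of 5 genes were tested and none was called. *csf1a* and *csf1b*, whose products sustain macrophages, were at 2.09 to 2.93 and 0.13 to 5.80 normalized CPM in controls and at 1.602 to 4.00 and 3.45 to 13.9 in *cora*. Their log2 fold changes were 0.10 (SE 0.41) and 1.39 (SE 0.87), and both overlapped between groups. The neutrophil receptor gene *csf3r* had 18 counts over the controls and 57 over the *cora* libraries, with a ratio of 2.84 (exact 95% interval 1.65 to 5.13, for counting error only). The gene *csf1ra* and the csf3 ligands were not analysed here.

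**Figure D4:**
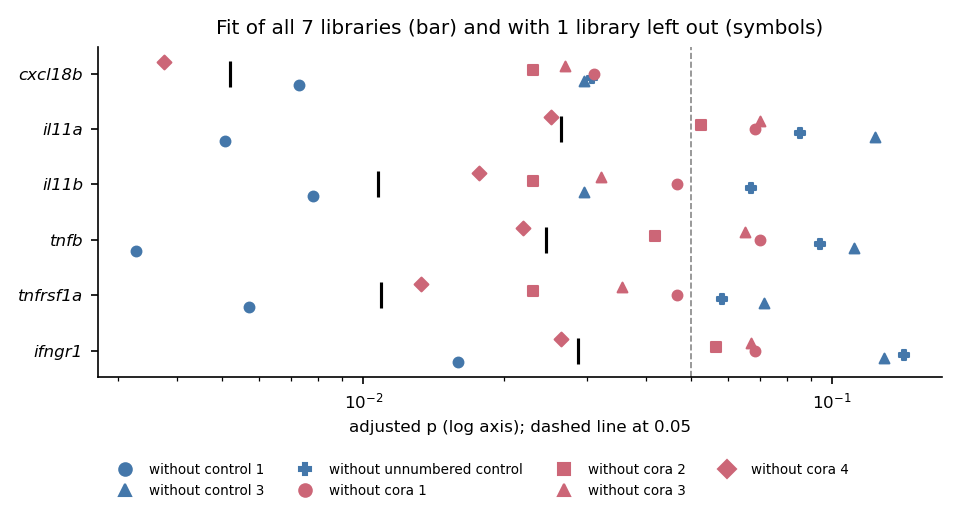
Adjusted p (x axis, log scale) of the 6 genes called higher, in the fit of all 7 libraries (black bar) and in the 7 fits that leave out 1 library each (symbols, coloured by group). *cxcl18b* stays left of the dashed line at 0.05 in all 7 fits, *il11b* in 6, *tnfrsf1a* in 5, *tnfb* in 3 and *il11a* and *ifngr1* in 2 each, and all 6 stay left of it without control replicate 1 and without *cora* replicate 4.

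The genes that relay these signals inside the cell were read from a separate list of NF-kB, JAK, STAT and feedback genes. The list was chosen with earlier results of these data known. Its counts and median are therefore descriptions and give no independent support. Of 46 symbols 33 matched and 31 were tested, of which 2 rose and none fell, beside 1.11% and 0.86% of all genes. At an unadjusted p under 0.05, 14 were higher and 0 lower, beside 9.13% and 8.61% of all genes. Of the 31, 26 had a log2 fold change above 0, beside 47.8% of all genes, and the median was 0.61, beside −0.03 over all genes. *jak3* and *socs1b* matched but had too few reads for the test. Their means were 0.143 and 0.209 normalized CPM in controls, and 0.0105 for each in *cora*. *bcl3*, a nuclear partner of NF-kB, was at 1.51, 2.52 and 1.37 normalized CPM in controls and at 20.3, 21.8, 29.6 and 17.8 in *cora* (log2 fold change 3.63, SE 0.34, adjusted p = 0.005). *irak3*, which restrains signalling from Toll-like and interleukin 1 receptors, was at 2.97, 1.61 and 2.85 and at 17.9, 16.3, 22.03 and 4.19 (log2 fold change 2.61, SE 0.55, adjusted p = 0.049).

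The groups did not overlap for either gene. The genes *jak1*, *stat3* and *nfkbiaa*, given next, were not picked by the naming rule. *jak1* was at 97.1, 56.5 and 52.7 normalized CPM in controls and at 139, 159, 143 and 140 in *cora* (log2 fold change 1.08, adjusted p = 0.071). *stat3*, the factor downstream of interleukin 11, was at 35.4, 16.3 and 12.1 and at 36.1, 48.1, 38.6 and 34.6, so control replicate 1 overlapped *cora* (log2 fold change 0.89, adjusted p = 0.232). *nfkbiaa*, an inhibitor of NF-kB that NF-kB itself induces, was at 43.8, 14.6 and 11.3 and at 54.5, 65.6, 110 and 37.3 (log2 fold change 1.53, adjusted p = 0.172). Control replicate 1 again made the groups overlap. The 5 genes below 0 were *socs7*, *stat5a*, *cish*, *ripk1l* and *tab1*, and none was called. The lowest, *socs7*, was at 0.775, 0.455 and 0.687 in controls and at 0.209, 0.374, 0.277 and 0.205 in *cora*, without overlap (log2 fold change −1.24, adjusted p = 0.312).

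**Figure D5:**
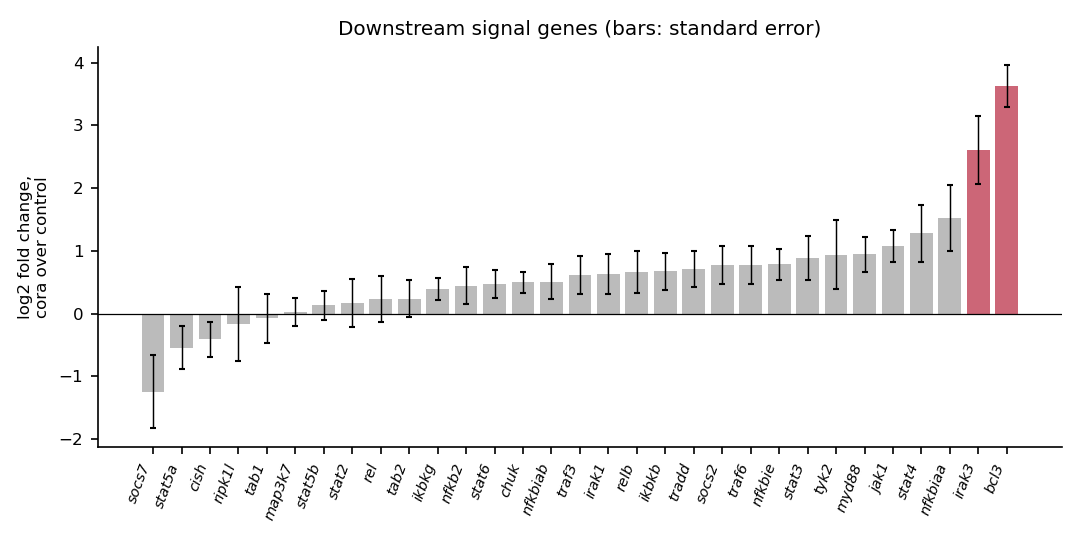
Log2 fold change of *cora* over control (y axis) with its SE for the 31 downstream signal genes tested, ordered from lowest to highest. The 2 red bars, *irak3* and *bcl3*, have an adjusted p under 0.05, and 26 of the 31 bars are above 0.

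Leukocytes make many of these cytokines, so their markers were read beside them. Of 18 macrophage and neutrophil gene IDs tested, 2 rose, *mmp9* and *mmp13a* (log2 fold changes 5.38 and 5.24), which encode matrix proteases that other cell types also make, and the median of the 18 was −0.04. The summed share of the list was 0.0148% to 0.0196% of counts in controls and 0.0507% to 0.270% in *cora*, most of the *cora* share from these 2 genes. The lysozyme gene *lyz* was at 5.60 to 21.1 normalized CPM in controls and 1.52 to 21.6 in *cora*, and the leukocyte surface gene *ptprc* at 1.09 to 8.05 and 1.29 to 2.55, and neither was called. At an unadjusted p under 0.05, 5 of the 18 were higher and 0 lower, beside 9.13% and 8.61% of all genes. Besides the 2 proteases these were *ncf1*, a subunit of the phagocyte oxidase (2.85 to 13.4 in controls and 17.9 to 26.2 in *cora*, without overlap, log2 fold change 1.59, adjusted p = 0.118), *srgn* (log2 fold change 1.37, adjusted p = 0.182) and 1 of 6 gene IDs with the symbol *mfap4* (0.74, adjusted p = 0.278), named after their values were seen. No gene of the list was at 0 in any library. The part of leukocyte number in the cytokine rises was not tested.

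Markers of other tissues were set beside the 6 genes in the same way. Of 6 lymphoid markers tested none was called, all 6 had a log2 fold change below 0, and their share was 0.00107% to 0.00287% in controls and 0.000363% to 0.00103% in *cora*, with the antibody gene *igic1s1* at 0 in every library. Of 15 epidermis markers 1 rose, the tight junction gene *cldne* (log2 fold change 1.58, adjusted p = 0.040). Of 8 endothelium markers 1 fell, *lyve1b* (−2.27, adjusted p = 0.034). Over all genes, 1.11% were called higher and 0.86% lower. At an unadjusted p under 0.05, 6 epidermis markers were higher and 2 lower, beside 9.13% and 8.61% of all genes. For endothelium these counts were 0 and 2, and for heart muscle 0 and 1. None of the 9 heart muscle markers tested was called. Their log2 fold change was above 0 for 1 and below 0 for 8, with a median of −0.96, beside −0.03 over all genes. The liver markers took 0.666% to 2.93% of control counts and 0.327% to 2.68% of *cora* counts, with 0 of 12 called. Red cell markers took 0.0334% to 0.0457% and 0.0134% to 0.0372%, with 1 of 6 lower, and neuron markers 0.0845% to 0.117% and 0.0894% to 0.137%, with 0 of 7 called. The part of tissue composition in the 6 rises was not tested.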

How the data were processed

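RNA from pooled 96 hpf hearts was sequenced in 3 control and 4 *cora* libraries after SMARTer library preparation. The authors deposited 1 table per library with 33737 Ensembl gene IDs, read counts per gene without normalization, CPM (the count as a share of the library total, scaled to a common total) and RPKM (CPM per kilobase of exon), and the submitters' processing notes name STAR 2.0.4b, Subread, featureCounts 1.4.5, edgeR and limma. Strand handling and the build are not given in the sources used here, and scaffold names in the deposited tables are those of Zv9. Only the counts were tested; the deposited CPM and RPKM were not used.

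Symbols matched 21939 gene IDs and 17217 of the 21632 genes tested. Of 31 chosen genes with capital letters in the symbol table, 28 received a zebrafish copy name from at least 3 shared neighbouring genes in GRCz12tu. The genes and lists were chosen with earlier results of these data known. Genes named are those with an adjusted p under 0.05, the lowest and highest log2 fold change per role at a mean of at least 1 normalized CPM, the most abundant per kilobase per role, and listed ligands and receptors.

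The fit used edgeR 4.0.16 under R 4.3.3 (filterByExpr by group, TMM, glmQLFit and glmQLFTest without covariates, prior count 0.125), and p-values were adjusted over every gene tested by the Benjamini-Hochberg method. The standard error is the log2 fold change over the square root of F. Ratios of low counts have exact conditional 95% intervals. The fit was tested on simulated counts. Alternatives were DESeq2 1.42.0, limma 3.58.1 voom, other scalings and filters, leaving out each library, and a replicate block. No pair of replicates differed by less than sampling noise. Totals of 21474488 to 32037220 counts make 3 counts worth 0.0936 to 0.140 CPM.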

Additional observations from a re-analysis of the deposited data

Results flagged for a closer look

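Among 41 named cytokine genes, 2 had 1 *cora* library far from the other 3 relative to their range (Dixon's test, which chance alone sets off in about 1 in 20 groups). *cxcr3.2* was at 2.34 normalized CPM in *cora* replicate 1 and at 1.27, 1.29 and 1.35 in the others. *il10* was at 0.277 normalized CPM in *cora* replicate 3, on 6 counts, and at 0, 0 and 0.041 in the others.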

How the results depend on the processing

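DESeq2's size factors in edgeR, library size alone, no filter and limma voom each kept all 6 cytokine genes called higher. DESeq2 also kept them, and called 14 higher, 5 lower and 1789 genes in all (426 in the edgeR fit). *il13ra1* was added to the genes called higher by library size alone, no filter, a minimum of 10 counts in every library and DESeq2. It was also added without control replicate 1 and without *cora* replicate 4. A minimum of 10 counts in every library removed both il11 genes from the test. Without a filter 1 of 138 cytokine genes was called lower, beside 222 of 28898 genes of any kind. At an unadjusted p, 22 were higher and 17 lower there, beside 4268 of all genes in both directions. With at least 10 counts in every library 2 of 63 were called lower, beside 237 of 18164. By limma voom 1 of 94 was called lower, beside 182 of 21632. *tnfaip8l3* was among those called lower in each.

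Leaving out 1 library gave 34 to 1207 genes called of 21338 to 22120 tested, with 9 to 659 higher and 25 to 548 lower. Of 90 to 102 cytokine genes tested, 1 to 8 were higher and 0 to 4 lower. At an unadjusted p, 14 to 25 were higher and 6 to 11 lower, beside 2675 to 5179 of all genes in both directions. Without the unnumbered control 34 genes were called, 9 of 22061 higher, and 1 of 102 cytokine genes was called, as higher. Without control replicate 1, 1207 genes were called. Of 100 cytokine genes 7 were then higher and 4 lower, beside 659 and 548 of 22120 genes of any kind. The median log2 fold change of the cytokine genes ranged from 0.11 to 0.32 over all alternatives.

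Deviations of same-numbered libraries correlated at 0.058 and 0.032 between the groups. For control 1 with *cora* 3 and control 3 with *cora* 1 the values were −0.101 and 0.001. With so few libraries, these values cannot decide whether a shared number marks a shared clutch or batch. With the replicate block on the 4 libraries numbered 1 and 3, 0 genes and 0 cytokine genes were called. At an unadjusted p, 2101 of 21404 genes passed, and of 94 cytokine genes 18 were higher and 4 lower. The same 4 libraries without the block also gave 0 genes called. The log2 fold change under the block was −0.032 for *ccl25b* and 0.64 for *cxcr3.2*.

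With 1 library left out, the log2 fold change of some uncalled genes changed sign: *tnfrsf11a* ranged from −0.013 (without control replicate 3) to 0.88, *ccl25b* from −0.13 (without *cora* replicate 1) to 0.33, *cxcl12a* from −0.31 (without control replicate 1; also below 0 without *cora* replicates 2 or 4) to 0.31, *ccr9a* from −1.16 to 0.017 (without control replicate 1), *cxcr3.2* from −0.42 to 0.41 (without the unnumbered control) and *csf1a* from −0.12 (without *cora* replicate 2; also below 0 without control replicate 3) to 0.30. The causes were not tested. For the downstream signal genes, repeats added after seeing the data called 5 higher by DESeq2, 1 to 4 with 1 library left out and 0 with the replicate block. Depth limited genes with few reads, such as *tnfa* and *il12b2*.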
